A study of Mus musculus with 12 samples.

Results

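Intergenic multi-exon non-annotated loci are stretches of the mouse genome where RNA-Seq reads were assembled into spliced transcripts that match no gene of the reference annotation. They were taken from the deposited transcript annotation as loci whose transcripts all carry class code u, the assembler's code for an unknown intergenic transcript. At least 1 transcript had to have 2 or more exons and 200 bp or more, and the locus had to be listed in the normalized expression table. This left 2762 of the 22187 loci of that table, or 12.4%. The annotation holds 35981 loci with class code u alone, of which 4825 have a spliced transcript of this length. The other 2063 of these are absent from the table and were not tested.

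The study profiled poly(A) RNA from EomesEGFP mouse embryonic stem cells (ESC), a C57BL/6 reporter line in which a green fluorescent protein cassette sits at the start site of the endogenous Eomes gene. All 3 groups come from this single line and carry the reporter allele. The ESC group (day 0, 4 libraries) was grown on mouse embryonic fibroblast feeders, and the other groups were differentiated in hanging drops for 3 days and sorted into Eomes-negative cells (Eo−, 4 libraries) and Eomes-positive cells (Eo+, 4 libraries). Replicates carry the numbers 1, 2, 5 and 6, and values per library are given in that order below.

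Long noncoding RNAs (lncRNAs) are spliced and polyadenylated like messenger RNAs but lack a long open reading frame. Many are made at low level, vary strongly between cell types, and start close to a protein-coding promoter on the opposite strand or at an enhancer. Eomes, of the T-box family, drives the mesendoderm, from which mesoderm and endoderm arise, and pluripotent cells lose their own transcription factor network as they enter that lineage.

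Levels are CPM, counts scaled to the TMM-adjusted library size, and FPKM is CPM per kb of summed exon length. Medians per group and the highest loci are given by FPKM, while the minimum levels by which other loci were chosen are in CPM, which favours longer loci. A locus was called when its adjusted p in limma was at most 0.05 over all 22187 loci. Locus counts ranged from 648413022 to 837308168 per library, so 3 counts, the limit below which a locus is treated as not detected, amounted to at most 0.00470 CPM. Eomes itself was at 36.0 to 57.1 CPM in ESC, 117 to 169 CPM in Eo− and 445 to 649 CPM in Eo+ libraries. Summed levels of 12 feeder fibroblast markers were 99.9 to 241 CPM in ESC against 30.5 to 40.7 CPM in Eo− and 30.3 to 44.7 CPM in Eo+. The 6 two-cell-like markers summed to 24.7 to 57.4 CPM in ESC, 0.615 to 1.64 CPM in Eo− and at most 0.0602 CPM in Eo+, where 3 of them were at or under 3 counts in every library. Visceral endoderm markers reached 56.3 CPM in an Eo+ library and blood markers 102 CPM in an Eo− library, and 6 immune markers ranged from 193 to 259 CPM over all groups. The feeder and two-cell-like lists separated ESC from both sorted fractions, while the ranges of the immune list overlapped between the groups. The part of these lists in the results below was not tested.

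The sequences that show what these loci look like are printed first. For 7 loci among the largest falls and rises, the later GENCODE M21 annotation on the same build (GRCm38, which is mm10) holds a gene that shares at least 1 of their introns, and 5 of the 7 are shown. XLOC_006535, XLOC_015535 and XLOC_007486 are among the falls, and XLOC_017731 and XLOC_021174 among the rises. Those not shown are XLOC_063330, whose promoter is printed instead, and XLOC_006008. The gene at XLOC_021174, Frmpd2, is protein-coding there. The last 15 bases of the upstream exon (lower case) and the first 15 bases of the downstream exon (capitals) at the first shared intron are given, read from GENCODE M21 transcripts.
XLOC_006535, Gm47725, intron chr10:95893666-95894200, plus strand: tggtcagcacgtaagTTTAGCCACTGAGCA
XLOC_015535, Gm46332, intron chr12:4553176-4553690, minus strand: tgaacctctgaatctGAAATAAAGTGCACA
XLOC_007486, Gm26564, intron chr10:34231404-34233406, minus strand: tgaacctctgaacctGCTTCTGCTGACTCA
XLOC_017731, A230103O09Rik, intron chr13:39824407-39830560, plus strand: cttgaggagctcaagAAATCATTTGACAGA
XLOC_021174, Frmpd2, intron chr14:33471833-33495574, plus strand: tggcaaaggacacagGCATGAGTGTGGCCT

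XLOC_015535 and XLOC_007486 lie on different chromosomes, yet their upstream exons end in nearly the same letters. This likeness was followed, after the values were seen, over the 453 splice junctions that members share with GENCODE M21 and whose exon ends could be read. Exon ends were grouped when their last 20 bases differed at no more than 3 positions. The largest group holds 9 loci. Those within 2 mismatches of XLOC_002263 are shown, each with 1 exon end, and the 20 compared bases are in capitals.
XLOC_002263, chr1, plus strand: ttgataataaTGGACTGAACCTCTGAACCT
XLOC_007486, chr10, minus strand: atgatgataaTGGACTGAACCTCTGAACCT
XLOC_015535, chr12, minus strand: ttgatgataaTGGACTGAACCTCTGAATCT
XLOC_031339, chr17, minus strand: gatgaaacaaTGGAGTGAACCTCTGAACCT
XLOC_006715, chr10, plus strand: ttgatgatgaCGGACTGAACCTCTGAATCT
XLOC_007452, chr10, minus strand: ttggtgataaTGGACTGAATCTCTGAACCC
XLOC_022925, chr14, minus strand: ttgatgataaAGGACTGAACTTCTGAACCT
XLOC_060678, chr6, minus strand: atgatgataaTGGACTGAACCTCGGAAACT

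The second group holds 5 loci with a different exon end.
XLOC_021434, chr14, plus strand: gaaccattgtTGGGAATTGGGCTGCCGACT
XLOC_047112, chr3, minus strand: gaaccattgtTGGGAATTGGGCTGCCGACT
XLOC_065164, chr7, minus strand: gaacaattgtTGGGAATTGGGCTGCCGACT
XLOC_068283, chr8, minus strand: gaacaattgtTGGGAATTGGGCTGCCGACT
XLOC_067134, chr8, plus strand: gaaccattgtTGGGAATTGTACTGCAGACT

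Some members start head to head with a coding gene. The promoter windows of Kdr, the receptor of vascular endothelial growth factor on blood and vessel progenitors, and Med26, a subunit of the Mediator complex, are given from RefSeq (GRCm38.p6, 250 bases before to 50 after the gene start). Capitals mark the bases between the start of the gene and the start of the member, which runs the other way.
Kdr and XLOC_053158, chr5:75978406-75978705, minus strand: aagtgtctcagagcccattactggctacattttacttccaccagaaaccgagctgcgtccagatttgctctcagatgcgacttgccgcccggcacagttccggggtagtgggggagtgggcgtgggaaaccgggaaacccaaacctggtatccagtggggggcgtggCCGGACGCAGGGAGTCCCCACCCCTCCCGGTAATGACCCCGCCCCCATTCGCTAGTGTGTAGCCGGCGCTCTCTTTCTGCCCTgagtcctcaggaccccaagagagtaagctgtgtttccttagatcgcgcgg
Med26 and XLOC_067494, chr8:72548261-72548560, minus strand: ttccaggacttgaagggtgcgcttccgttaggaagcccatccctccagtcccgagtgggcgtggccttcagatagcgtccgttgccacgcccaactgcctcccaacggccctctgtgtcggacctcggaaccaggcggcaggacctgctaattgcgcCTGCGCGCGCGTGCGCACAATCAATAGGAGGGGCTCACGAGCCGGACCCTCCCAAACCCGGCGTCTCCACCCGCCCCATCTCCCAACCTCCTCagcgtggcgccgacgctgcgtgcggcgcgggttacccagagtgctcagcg

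For 175 members a RefSeq gene starts within 100 bp of a member start on the same strand, so the window is the member's own promoter. The windows of the locus with the highest level in Eo+ cells among the largest rises (XLOC_063330, RefSeq Gm45889), of the locus with the largest rise between the sorted fractions (XLOC_017731, RefSeq A230103O09Rik) and of the highest of the matched loci by FPKM (XLOC_042881, RefSeq Gm40003) are shown. Capitals mark matches on either strand to 6 motifs searched, which are the octamer ATTTGCAT of POU factors, the T-box motif AGGTGTGA, the Sox and Tcf motif AACAAAG, the GATA motif AGATAA, the TATA box TATAAA and the box named CCAAT. On the last of the windows 2 CCAAT matches on opposite strands overlap.
XLOC_063330, chr7:142282964-142283263, plus strand: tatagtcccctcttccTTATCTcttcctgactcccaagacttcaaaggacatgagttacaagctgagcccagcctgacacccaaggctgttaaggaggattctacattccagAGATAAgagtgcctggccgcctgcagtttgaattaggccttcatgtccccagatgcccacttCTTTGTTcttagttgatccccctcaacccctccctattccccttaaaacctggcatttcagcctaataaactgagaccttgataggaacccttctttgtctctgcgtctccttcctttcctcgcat
XLOC_017731, chr13:39823929-39824228, plus strand: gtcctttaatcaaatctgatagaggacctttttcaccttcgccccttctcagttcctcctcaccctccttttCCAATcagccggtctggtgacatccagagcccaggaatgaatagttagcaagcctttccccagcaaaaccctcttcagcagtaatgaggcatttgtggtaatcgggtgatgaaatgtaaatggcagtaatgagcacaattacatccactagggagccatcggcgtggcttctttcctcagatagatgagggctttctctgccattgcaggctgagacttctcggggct
XLOC_042881, chr2:170673789-170674088, minus strand: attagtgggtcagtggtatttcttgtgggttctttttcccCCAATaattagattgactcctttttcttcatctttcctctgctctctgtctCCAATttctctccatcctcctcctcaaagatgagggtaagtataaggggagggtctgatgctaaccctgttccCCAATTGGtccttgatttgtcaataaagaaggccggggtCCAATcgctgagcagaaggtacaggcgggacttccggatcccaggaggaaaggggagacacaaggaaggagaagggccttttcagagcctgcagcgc

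Of the 175 own promoters, 3 hold ATTTGCAT (1.71%, against 1.74% of all 32851 RefSeq promoters), 2 AGGTGTGA (1.14% against 1.28%), 13 AACAAAG (7.43% against 5.85%), 23 AGATAA (13.1% against 11.2%), 20 TATAAA (11.4% against 13.6%) and 78 CCAAT (44.6% against 37.4%). CpG ratio, the observed over expected count of CG, had a median of 0.318 in them and of 0.384 in all RefSeq promoters. In addition, 127 members start upstream, on the opposite strand, inside 133 RefSeq promoter windows of other genes. In those 133 windows the median CpG ratio was 0.798, TATAAA was found in 4 (3.01%), AGATAA in 4 (3.01%), AACAAAG in 5 (3.76%), ATTTGCAT in 3 (2.26%), AGGTGTGA in 0 and CCAAT in 58 (43.6%, near the share in own promoters). The Kdr and Med26 windows had CpG ratios of 0.689 and 0.938, and neither holds any of the 6 motifs. Windows shared with a named gene were thus richer in CpG than the own promoters of members.

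The 2762 loci are small and simply built. Their median span was 5924 bp, from 346 to 383477 bp, and the longest transcript had a median of 1313 bp. In 1600 of them the largest transcript had 2 exons, and 1066 were assembled as a single transcript. They lay on both strands alike, 1355 on plus and 1407 on minus. They made up 6.54% of the table's loci on chromosome 11 and 19.5% on chromosome 12, the lowest and highest shares among the autosomes.

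The nearest named gene was protein-coding for 2340 loci, and the gap to it had a median of 16458 bp with quartiles of 2067 and 66850 bp. By orientation, 724 loci pointed away from the neighbour on the opposite strand (divergent), 698 lay downstream and 570 upstream on the same strand, and 501 faced the neighbour end to end. Another 269 overlapped the assembled span of the neighbour. Several loci could share a neighbour: Sall1, a zinc finger transcription factor, was nearest to 7 loci within 100 kb, Spry2, an inhibitor of growth factor signalling, to 5, and Jarid2, a subunit of a Polycomb complex, to 5, of which 4 lay within 100 kb.

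Later annotation bears on the name lncRNA for part of these loci. Exons of 445 members overlap GENCODE M21 exons on the same strand, and 254 share at least 1 splice junction with it (456 of the 7775 junctions of all members). By gene type the 445 are 347 lncRNAs, 51 pseudogenes and 47 protein-coding genes. XLOC_021174 shares 29 of its 45 junctions with the protein-coding gene Frmpd2, so it goes against the label. Coding potential was not scored here, and the loci are therefore called intergenic non-annotated loci below.

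Expression of the intergenic loci was low in all groups and lowest in Eo+ cells. Their summed level took 0.144% to 0.165% of the counts of an ESC library, 0.0898% to 0.101% of an Eo− library and 0.0686% to 0.0951% of an Eo+ library. The highest Eo+ share belonged to replicate 1, in which a single locus, XLOC_040333, reached 298 CPM. Median FPKM per group was 0.0670 in ESC, 0.0343 in Eo− and 0.0247 in Eo+ cells, against 2.29, 2.56 and 2.74 for protein-coding loci and 0.0691, 0.0568 and 0.0536 for annotated lncRNA loci. Antisense non-annotated loci, the 577 with transcripts that overlap exons of a gene on the opposite strand, had medians of 0.0986, 0.0646 and 0.0487. The medians thus fell across the groups for antisense loci and annotated lncRNA loci too, and not for protein-coding loci. At or under 3 counts in all 4 libraries were 29 members in ESC, 83 in Eo− and 399 in Eo+ cells. A mean of at least 1 CPM was reached by 214 members in ESC, 140 in Eo− and 114 in Eo+ cells. In bulk RNA, fewer cells that express a locus and less RNA per cell cannot be told apart.

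The first comparison asks how these loci change when ESCs become Eomes-positive mesendoderm. In Eo+ vs ESC, 1939 of 2762 members were called (70.2%), beside 68.5% of all loci tested. Of these, 485 were higher (17.6% of members, beside 33.0% of all loci) and 1454 lower in Eo+ (52.6%, beside 35.6%). For 1753 of the called members no ESC library lay within the range of Eo+ (beside 60.0% of all loci). The median log2 fold change of members was -1.33, against -0.02 over all loci. The share of called loci was therefore near that of all loci, while the split of directions was shifted to lower. The study kept a locus when its average FPKM passed 0.1 in at least 1 condition. A low member can thus be in the set only through the group where it is high. How far the splits of direction, here and below, follow from that choice was not tested.

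In Eo− vs ESC, which compares the Eomes-negative fraction with ESCs, 1601 members were called (58.0%, beside 57.8% of all loci), 422 higher (beside 28.2%) and 1179 lower (42.7%, beside 29.6%). Of these, 1414 had no overlap between libraries (beside 49.8%). The median log2 fold change was -0.64 for members and 0.01 for all loci. In Eo+ vs Eo−, which compares the sorted fractions, 1147 members were called (41.5%, beside 42.8% of all loci), 258 higher in Eo+ (9.34%, beside 20.0%) and 889 lower (32.2%, beside 22.8%), with a median log2 fold change of -0.72 against -0.03. No overlap was found for 971 (beside 36.6%). By group mean, 1573 members (57.0%) were highest in ESC, 581 in Eo− and 608 in Eo+ cells, while 41.6% of all loci were highest in ESC. Antisense non-annotated loci also leaned to lower. Of them, 41.9% were called lower and 19.9% higher in Eo+ vs ESC. Against ESC, the Eo− fraction had 34.5% lower and 22.4% higher. Between the fractions 31.4% were lower and 7.63% higher in Eo+, shares close to those of the members. Annotated lncRNA loci had 32.6% lower and 27.6% higher in Eo+ vs ESC, and 26.2% lower and 22.8% higher in Eo− vs ESC. Between the fractions they had 20.3% lower and 12.6% higher in Eo+. The difference between members and other loci was described and not tested, because no test of a list was used.

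**Figure D1:**
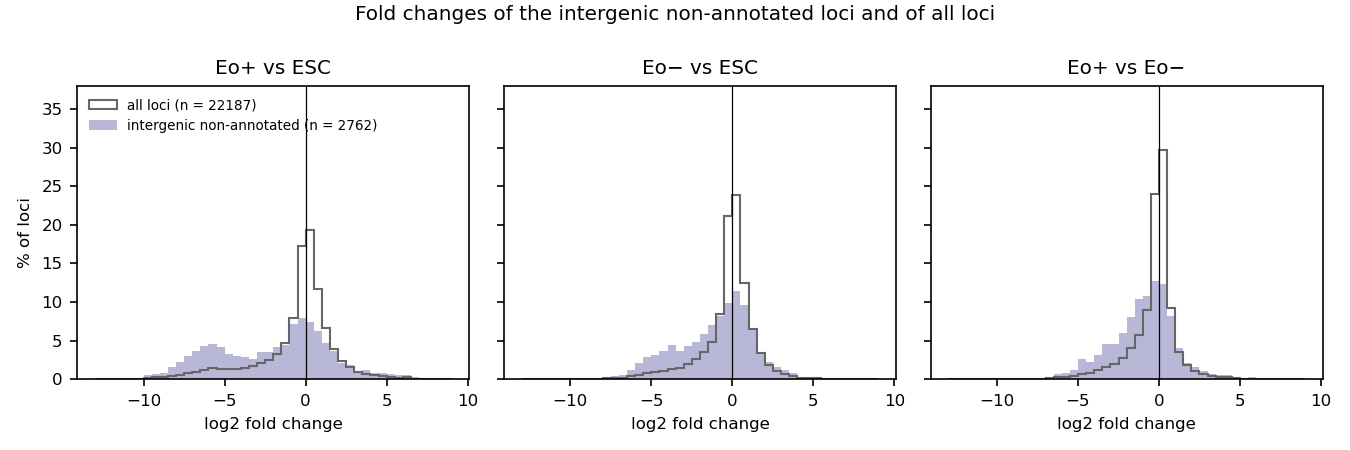
Share of loci (%) by log2 fold change in bins of 0.5 for the 2762 intergenic non-annotated loci (filled) and all 22187 loci tested (line), in the 3 comparisons. The intergenic loci have a second hump of strongly lower values in Eo+ vs ESC and a shoulder of lower values in Eo− vs ESC.

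The direction of change was graded by the distance to the nearest named gene. At a gap of up to 1 kb, 20.9% of 287 loci were called lower and 27.9% higher in Eo+ vs ESC, beside 35.6% and 33.0% of all loci tested. The share called lower was 41.8% of 337 loci at 1 to 5 kb, 53.3% of 584 at 5 to 20 kb, 62.0% of 744 at 20 to 100 kb and 68.4% of 541 beyond 100 kb. In the same order the share called higher was 21.7%, 17.1%, 15.5% and 9.98%. Thus the more distant bins held more loci that fell and fewer that rose. The 269 loci that overlap a neighbour had 41.3% lower and 23.4% higher. The medians followed the same order, from a log2 fold change of 0.21 at up to 1 kb to -3.69 beyond 100 kb. Between the sorted fractions 12.2% were lower at up to 1 kb and 39.0% beyond 100 kb, beside 22.8% of all loci tested. The median CPM in the highest group, which is not scaled to length, was 0.155 at up to 1 kb, 0.131 at 20 to 100 kb and 0.0944 beyond 100 kb. Loci with more exons were called more often in Eo+ vs ESC, where 68.5% of all loci tested were called: 63.9% of 1600 with 2 exons, 76.9% of 662 with 3 and 81.6% of 500 with 4 or more. Their median CPM in the highest group, which reflects the counts behind the test and grows with exon length, was 0.106, 0.134 and 0.254.

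Whether a locus changed with its neighbour was also set against distance. In Eo+ vs ESC, 1606 of 2762 members (58.1%) had the same sign of change as their nearest named gene, and 58.0% of 18820 named loci had the same sign as theirs. These pooled shares come from unlike gaps. Of the named loci 7552 overlapped their neighbour and 893 lay over 100 kb from it, against 269 and 541 of the members. Shares at like gaps are therefore given as well. At up to 1 kb the share was 69.0% for 287 members and 59.2% for 2182 named loci, at 1 to 5 kb 64.7% and 55.0%, and beyond 100 kb 51.0% and 53.9%. Among the 180 divergent members with a gap of at most 1 kb, 130 (72.2%) had the sign of the neighbour, and where both were called 55 of 64 did. Of 981 divergent named loci as close, 62.3% had the same sign, and 301 of the 410 with both called. The member share in Eo− vs ESC was 62.0% at up to 1 kb, 65.0% at 1 to 5 kb and 50.8% beyond 100 kb. In Eo+ vs Eo− it was 63.4%, 63.2% and 63.2% in the bins up to 20 kb and 49.4% beyond 100 kb, so in these comparisons the closest bins were not graded. For Eo− vs ESC 57.1% of members and 57.3% of named loci had the neighbour's sign, and in Eo+ vs Eo− 58.4% and 57.5%. The close divergent members of that comparison with both loci called had the same sign in 25 of 26 pairs, beside 129 of 152 named pairs. Of the 287 members within 1 kb, 81 lie on the strand of the neighbour, 58 of them downstream, and for these a longer form of the neighbour's transcript and a separate RNA cannot be told apart. The same holds for the 98 members that overlap a neighbour on its own strand.

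**Figure D2:**
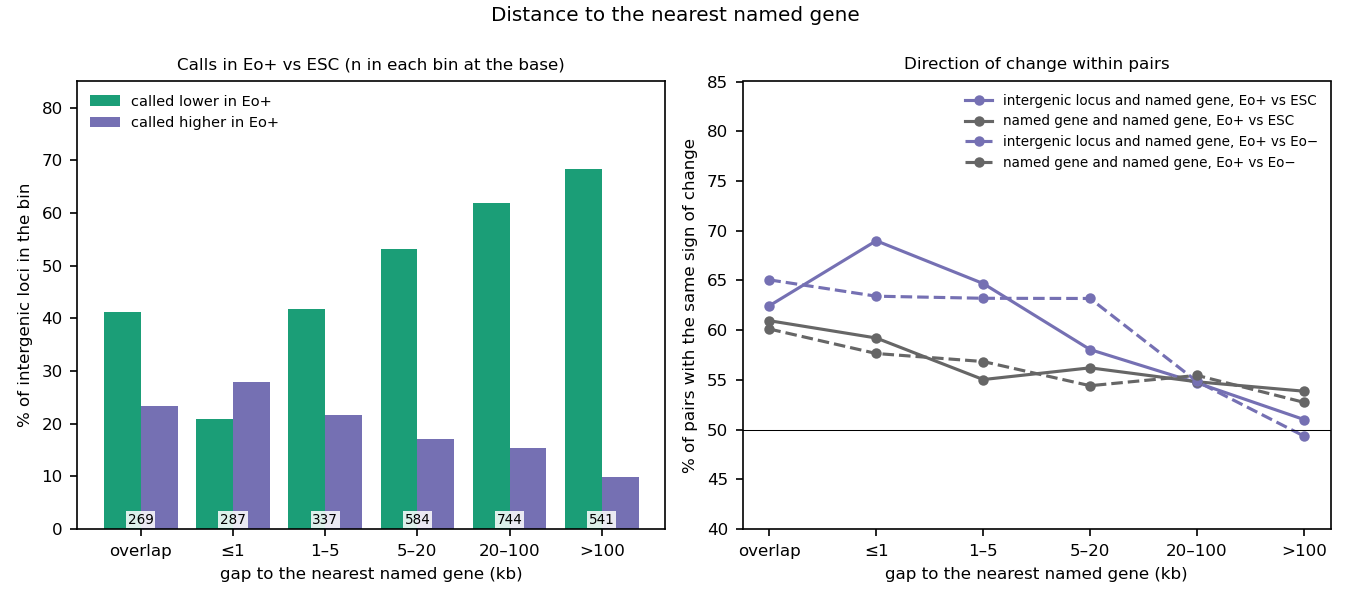
Left, % of intergenic loci called lower (green) or higher (violet) in Eo+ vs ESC by gap to the nearest named gene in kb, with the number of loci at the base of each bin. Right, % of pairs with the same sign of log2 fold change for intergenic loci and their nearest named gene (violet) and for named genes and theirs (grey), in Eo+ vs ESC (solid) and Eo+ vs Eo− (dashed). The share called lower climbs with distance from 20.9% to 68.4%, and the same-sign share of the intergenic loci in Eo+ vs ESC is highest, at 69.0%, for gaps of up to 1 kb.

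By FPKM, 6 loci were the highest over the 12 libraries. The first, XLOC_040333 (chr2:22744192-22745194), 28.9 kb from Apbb1ip, owed its rank to a single library. Its CPM was 19.1, 13.5, 18.2 and 15.8 in ESC, 10.3, 6.52, 12.7 and 7.47 in Eo−, and 298, 8.78, 10.3 and 6.44 in Eo+. The Eo+ mean was 80.9 CPM with replicate 1 and 8.50 CPM without it. No comparison called it (adjusted p = 0.73, 0.46 and 0.32 in Eo+ vs ESC, Eo− vs ESC and Eo+ vs Eo−), but calls appeared with other settings. Without Eo+ replicate 1 it was called lower than ESC in Eo+ (log2 fold change -0.97, adjusted p = 0.0016) and in Eo− (-0.89, adjusted p = 0.0015). With all libraries it was called higher in Eo+ vs Eo− by limma with the replicate number as a block (2.04, adjusted p = 0.045) and by edgeR (3.13, adjusted p = 0.023). A block within the sorted fractions alone did not call it. Without Eo+ replicate 1 its log2 fold change between the fractions was -0.08.

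The second, XLOC_036929 (chr19:54077503-54460979, 28.5 kb from Adra2a), has 292 bp of exons in a span of 383 kb, and was at 37.2, 45.1 and 32.4 FPKM in ESC, Eo− and Eo+. It was lower in Eo+ than in Eo− (log2 fold change -0.49 ± 0.16 SE, adjusted p = 0.025), a call that leaving out Eo+ replicate 2 or 6 or Eo− replicate 2 or 5 removed. XLOC_042881 (chr2:170670953-170673879, 8.49 kb upstream of Gm14264), whose promoter with its CCAAT matches is shown above, was at 31.6, 32.0 and 11.1 FPKM and was lower in Eo+ than in ESC (-1.53 ± 0.17, adjusted p = 1.6e-06). XLOC_065758 (chr7:106692499-106693094, nearest to Olfr701) was at 20.2, 25.1 and 23.6 FPKM and was called in no comparison, although leaving out ESC replicate 1 gave a call in Eo− vs ESC (0.54, adjusted p = 0.033). XLOC_019105 (chr13:21381376-21382315), 4.69 kb downstream of the zinc finger gene Zkscan3, was at 12.1, 14.1 and 17.1 FPKM and was higher in Eo+ than in ESC (0.51 ± 0.13, adjusted p = 0.0039). These loci were picked as the highest, so levels well above the median of members follow from that choice.

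XLOC_026679 (chr15:93678603-93680040, 82.7 kb upstream of Prickle1) was the third of the highest loci and the one that fell most among them. Its level was 114, 118, 108 and 138 CPM in ESC, 12.7, 12.2, 11.8 and 8.69 CPM in Eo−, and 1.15, 1.16, 1.33 and 1.26 CPM in Eo+, without overlap of any groups. GENCODE M21 places a processed pseudogene of Zfp42, Zfp42-ps1, on the same strand there. Zfp42 (Rex1), a zinc finger marker of pluripotent cells, is a different gene on another chromosome. In every library the level of XLOC_026679 was a similar share of that of Zfp42: 22.1% to 26.7% in ESC, 25.5% to 28.3% in Eo− and 26.3% to 30.3% in Eo+. How alike this copy and Zfp42 are in sequence was not measured here. A count at a near-identical copy can include reads of the parent gene, so the level of this locus is uncertain, and so are those of the 51 members that overlap a pseudogene, 35 of them processed. Whether reads were shared was not tested.

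The largest rises are given with their nearest named genes, and no common role of these genes was tested. XLOC_072231 (chr9:23204098-23205671) starts 17.0 kb from Bmper, a secreted regulator of BMP signalling in endothelial cells, on the opposite strand. It was at 0.0156, 0.00925, 0.0269 and 0 CPM in ESC, 0.234, 0.184, 0.0611 and 0.311 CPM in Eo−, and 0.827, 1.79, 0.612 and 1.81 CPM in Eo+. All Eo− and Eo+ libraries lay above all ESC libraries, and the Eo+ libraries above the Eo− libraries. It rose by 7.16 ± 1.11 (log2, SE) over ESC in Eo+ (adjusted p = 5e-05) and by 2.71 ± 0.54 over Eo− (adjusted p = 0.0011). Bmper itself was at 0.887, 4.27 and 37.7 CPM in ESC, Eo− and Eo+ and rose by a log2 fold change of 5.52 ± 0.55 (adjusted p = 7.4e-07).

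XLOC_034488 on chromosome 18 overlaps the start of Prdm6, a transcriptional repressor of smooth muscle and endothelial precursors, on the opposite strand. It was at 0.0337, 0.0132, 0.0576 and 0.0222 CPM in ESC, 0.227, 0.132, 0.0815 and 0.155 CPM in Eo−, and 2.19, 3.42, 1.05 and 3.72 CPM in Eo+. Its log2 fold change in Eo+ vs Eo− was 4.03 ± 0.49 (adjusted p = 2.4e-05), and that of Prdm6 was 5.46 ± 0.60 (adjusted p = 9.5e-06), from 1.42 to 47.9 CPM.

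XLOC_063330 (chr7:142282835-142290994), whose promoter is printed above, was at 2.09, 0.355, 0.990 and 0.124 CPM in ESC, 9.55, 2.53, 1.40 and 4.85 CPM in Eo−, and 61.5, 71.3, 27.2 and 78.5 CPM in Eo+. Replicates within ESC and Eo− varied widely, and the Eo+ libraries stood apart from all others. Without replicate 1 the ESC mean went from 0.891 to 0.490 CPM and the Eo− mean from 4.58 to 2.93 CPM. It rose by 6.60 ± 0.80 over ESC in Eo+ (adjusted p = 4.8e-06) and by 3.92 ± 0.57 over Eo− (adjusted p = 9.5e-05). Its neighbour, a locus in which Ctsd and Ifitm10 were joined 34.8 kb away, was at 303, 204 and 222 CPM and fell in Eo+ vs ESC (-0.43 ± 0.13, adjusted p = 0.0098), so the pair moved in opposite directions.

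XLOC_017731 (chr13:39823790-39833108) lies 857 kb from its nearest named gene. It was at 0.0102 to 0.0311 CPM in ESC, 0.0109 to 0.0984 CPM in Eo− and 0.689, 2.95, 1.09 and 1.56 CPM in Eo+, so that every Eo+ library lay above all others. The Eo− mean was 0.0391 CPM with replicate 2 and 0.0194 CPM without it. The log2 fold change in Eo+ vs Eo− was 5.62 ± 0.75 (adjusted p = 5.2e-05). XLOC_019753 (chr13:56749941-56762522), 7.53 kb beyond the end of Smad5, a signal transducer of BMP receptors that was assembled with Gm27301 into 1 locus, rose in both sorted fractions, with 0.0163 to 0.0742 CPM in ESC, 1.57 to 2.80 CPM in Eo− and 8.82 to 18.1 CPM in Eo+. The Smad5 locus went from 36.4 to 75.6 CPM (1.05 ± 0.09, adjusted p = 1.4e-07, in Eo+ vs ESC). Part of the XLOC_019753 exons overlap a protein-coding model of GENCODE M21, Gm45623, without a shared junction.

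Between ESC and Eo−, XLOC_044772 (chr3:126030146-126037813, 91.5 kb from Ugt8a), XLOC_021174 (Frmpd2) and XLOC_000032 (chr1:5292530-5313549, 129 kb from Atp6v1h) were the other large rises. XLOC_044772 was the one with a higher mean in Eo− than in Eo+: 0.317, 0.469, 0.394 and 0.153 CPM in ESC, 3.05, 4.45, 4.99 and 3.28 CPM in Eo− and 1.24, 3.56, 2.66 and 2.13 CPM in Eo+. It rose by 3.63 ± 0.39 over ESC in Eo− (adjusted p = 3.1e-06). For Eo+ vs Eo− it was -0.78 ± 0.29 (adjusted p = 0.044), a call that edgeR, DESeq2, fitting without a filter and leaving out ESC replicate 1, Eo− replicate 2, 5 or 6 or Eo+ replicate 1 or 6 removed. Ugt8a, a galactosyltransferase of myelin lipids, was likewise highest in Eo−, at 5.31, 11.3 and 2.97 CPM. XLOC_021174 was at 0.0361 to 0.255 CPM in ESC and 0.981 to 1.38 CPM in Eo−, and XLOC_000032 at 0.0845 to 0.326 and 0.606 to 2.56 CPM.

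The largest falls went from clear levels in ESC to at most 0.0448 CPM in any Eo+ library. XLOC_006535 (chr10:95892197-95897272, 43.4 kb upstream of Eea1) was at 4.39, 5.34, 3.76 and 4.86 CPM in ESC, 0.109, 0.207, 0.148 and 0.0937 CPM in Eo−, and 0, 0, 0.00140 and 0 CPM in Eo+. ESC was at least 975-fold higher than Eo+, taking 3 counts per library as the limit (adjusted p = 2.7e-09). XLOC_033743 on chromosome 18, 16.3 kb upstream of Pard6g, was at 2.28, 4.01, 3.26 and 5.64 CPM in ESC and at no more than 0.00157 CPM in Eo+, at least 808-fold higher in ESC. It overlaps a processed pseudogene of GENCODE M21. XLOC_015535 (chr12:4552540-4554799, 38.2 kb from Itsn2) was at 43.8, 47.3, 58.7 and 60.1 CPM in ESC, 1.60, 1.98, 1.73 and 2.05 CPM in Eo−, and 0.00128, 0.0314, 0.0448 and 0.0141 CPM in Eo+. XLOC_007486 (chr10:34230214-34233633, 22.7 kb upstream of Dse) was at 20.2, 26.1, 26.9 and 34.8 CPM in ESC, 0.597 to 0.936 CPM in Eo− and 0.00280 to 0.0118 CPM in Eo+. For both loci no library of a group overlapped one of another group. Their log2 fold changes in Eo+ vs ESC were -11.85 ± 0.72 and -11.58 ± 0.74 (adjusted p = 6.8e-09 and 1.1e-08). Their named neighbours Itsn2 and Dse changed by -0.66 ± 0.19 and -0.51 ± 0.07.

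In Eo− vs ESC the largest falls were XLOC_002027 (chr1:153378751-153387475, 13.2 kb from Dhx9), XLOC_027875 (chr16:64796859-64806125, overlapping Zfp654 on the opposite strand), XLOC_025828 (chr15:37139695-37144442, 87.5 kb from Gm16136) and again XLOC_007486. XLOC_002027 was at 1.06 to 1.66 CPM in ESC and 0.0154 to 0.0391 CPM in Eo− (log2 fold change -5.60 ± 0.38, adjusted p = 6.1e-08), while Dhx9, an RNA helicase, was at 432 and 384 CPM (-0.17 ± 0.07).

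For the falls between the fractions, only loci with a mean of at least 1 CPM in Eo− were considered. XLOC_006535, XLOC_033743 and XLOC_007486, described above, were under that level in Eo− and fell as well. XLOC_006535 and XLOC_033743 were at least 29.6-fold and 28.1-fold higher in Eo− than in Eo+, taking 3 counts per library as the limit, and XLOC_007486 had a log2 fold change of -6.45 ± 0.77. XLOC_045267 (chr3:15055446-15060771) and XLOC_043263 (chr3:15060454-15170814) overlap head to head on opposite strands, 52.7 and 57.7 kb from A930001A20Rik. XLOC_045267 was at 2.33, 0.671, 1.23 and 0.851 CPM in ESC, 1.79, 1.95, 2.52 and 1.35 CPM in Eo−, and 0.0141, 0.0196, 0.0743 and 0 CPM in Eo+, with an Eo+ mean of 0.0270 CPM, or 0.0112 CPM without replicate 5. XLOC_043263 was at 0.675 to 1.69 CPM in ESC, 0.810 to 1.18 CPM in Eo− and 0.0262 to 0.0574 CPM in Eo+. The log2 fold changes between the fractions were -7.27 ± 1.02 and -4.72 ± 0.46 (adjusted p = 7.6e-05 and 4.1e-06), and in Eo− vs ESC neither was called (adjusted p = 0.15 and 0.50). Without ESC replicate 1, XLOC_045267 was called higher in Eo− than in ESC (1.05, adjusted p = 0.034). XLOC_006008 (chr10:70837712-70855060), 67.6 kb from the RNA-binding protein gene Bicc1, was at 2.24 to 3.47 CPM in ESC, 1.30 to 1.78 CPM in Eo− and 0.0110 to 0.109 CPM in Eo+ (-5.84 ± 0.52, adjusted p = 1.8e-06, in Eo+ vs Eo−), where leaving out replicate 5 took the mean from 0.0398 to 0.0166 CPM. It was also lower in Eo− than in ESC (-0.85 ± 0.23, adjusted p = 0.0057), a call that edgeR and DESeq2 did not make. Bicc1 rose in Eo− vs ESC (0.91 ± 0.12, adjusted p = 2.4e-05) and in Eo+ vs Eo− (1.16 ± 0.10, adjusted p = 1.7e-06).

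**Figure D3:**
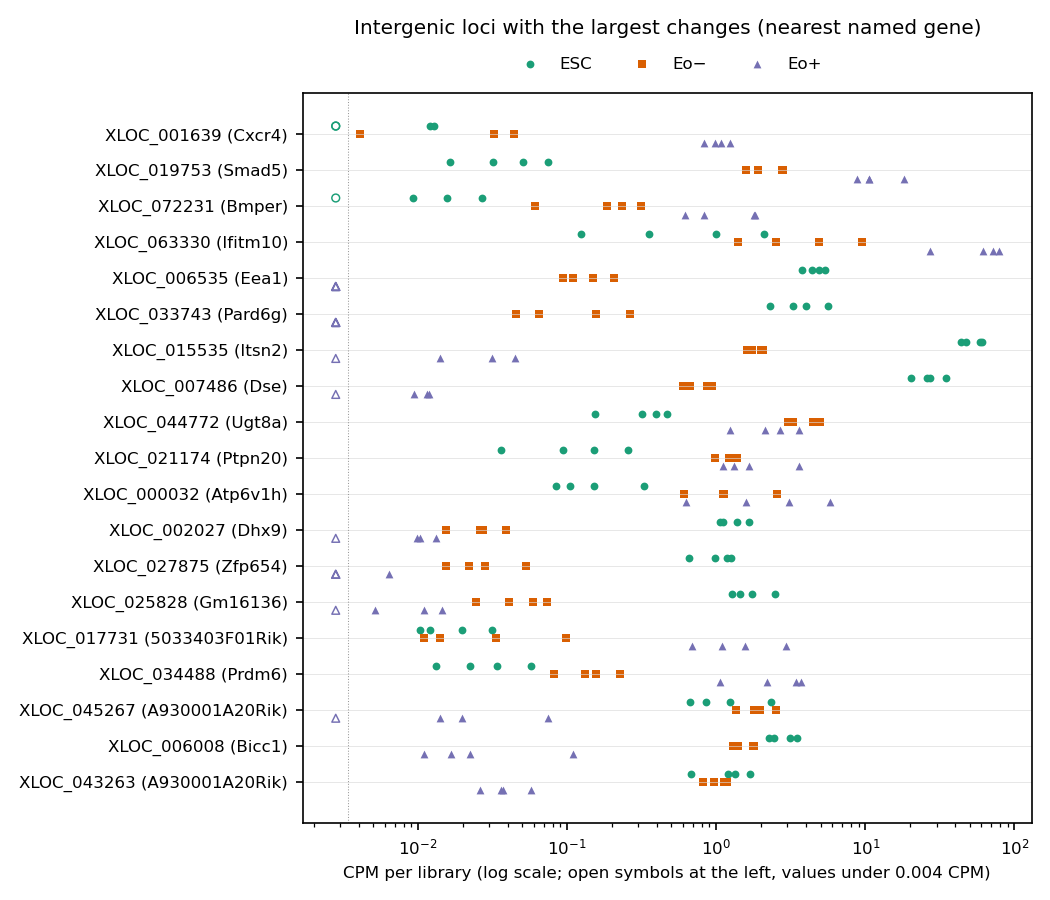
CPM of each library (log axis) for the loci with the largest rises and falls in the 3 comparisons, with the nearest named gene in brackets; circles are ESC, squares Eo− and triangles Eo+, and open symbols at the left stand for values under 0.004 CPM. XLOC_015535 and XLOC_007486 lie between 20.2 and 60.1 CPM in ESC and at most at 0.0448 CPM in Eo+ libraries.

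The loci that share the printed exon ends were followed across the groups. In GENCODE M21 the shared junction of XLOC_007452 belongs to Hint3 and that of XLOC_021434 to Fbxo34, each also the nearest named gene. For these loci a form of that gene's transcript and a separate RNA cannot be told apart. In the first group of 9, 7 were called lower and 1 higher in Eo+ vs ESC, and 7 were lower in Eo− vs ESC. These counts include XLOC_015535 and XLOC_007486, which had been picked as large falls and led to the group, so they partly restate that choice. Of the 254 members that share a junction with GENCODE M21, 134 were lower (52.8%) and 57 higher (22.4%) in Eo+ vs ESC, and 106 were lower in Eo− vs ESC (41.7%). Over all loci tested 35.6% were lower and 33.0% higher in Eo+ vs ESC, and 29.6% were lower in Eo− vs ESC. XLOC_002263, which overlaps the locus of the antibody receptors Fcgr2b and Fcgr3, was at 9.81 to 14.3 CPM in ESC, 0.402 to 0.517 CPM in Eo− and 0.0298 to 0.126 CPM in Eo+ (log2 fold change -7.39 ± 0.39 in Eo+ vs ESC, adjusted p = 1.8e-09). XLOC_019460 was at 0.156 to 0.216 CPM in ESC and had no count in any Eo− or Eo+ library. The exceptions were XLOC_031339, which rose from 0.452 to 0.944 CPM (1.06 ± 0.20, adjusted p = 0.00024), and XLOC_022925, at 1.54 and 0.994 CPM (adjusted p = 0.088).

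All 5 loci of the second group were lower in both sorted fractions than in ESC, with ESC means of 0.0538 to 0.763 CPM. XLOC_065164 was at 0.605 to 0.937 CPM in ESC, 0.00648 to 0.0284 CPM in Eo− and at most 0.0179 CPM in Eo+. Between the sorted fractions 3 loci of the first group were lower and 1 was higher in Eo+, beside 30.7% lower and 13.4% higher among the 254 members and 22.8% and 20.0% of all loci. Exon ends within 3 mismatches of the first group's centre made up 2.21% of the 453 member junctions and 0.485% of the 15463 junctions of lincRNA genes in GENCODE M21. For the second group the shares were 1.10% and 0.323%. Both groups were found among these member junctions, so a higher share there follows from the choice. Since the loci of a group share sequence, reads could have been divided among them, and only uniquely aligned reads were counted.

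**Figure D4:**
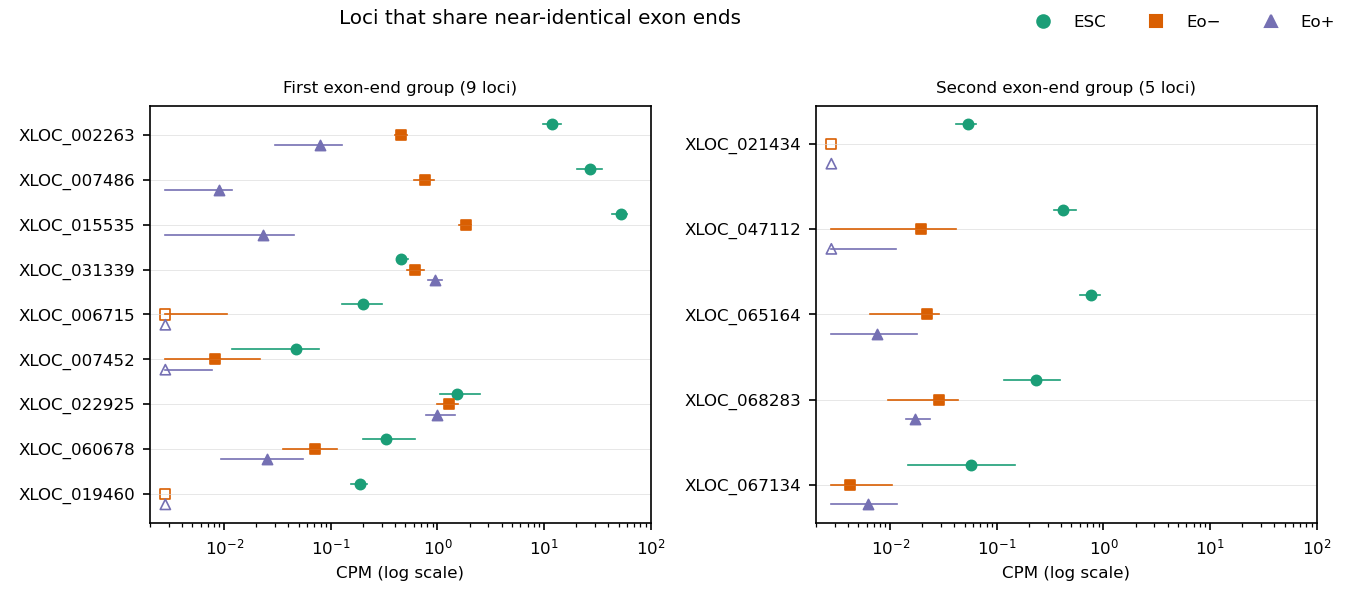
Mean CPM (symbols, log axis) with the lowest and highest of 4 libraries (lines) for the 9 loci of the first and the 5 loci of the second exon-end group; open symbols stand for means under 0.004 CPM. In the first group XLOC_031339 and XLOC_022925 have means of 0.944 and 0.994 CPM in Eo+ cells, and the ESC mean is the highest for every locus but XLOC_031339.

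Lists of lineage genes were then used to find loci beside genes of known role. Of 125 listed genes 29 were the nearest named gene of a member within 100 kb, with 41 members in all. Beside 12 of 40 pluripotency genes lay 19 members, of which 14 were called lower and 2 higher in Eo+ vs ESC (median log2 fold change -4.78). Beside 12 of 40 primitive streak and mesendoderm genes lay 15 members, of which 1 was lower and 10 higher (median 1.34). Beside 4 of 27 genes of cardiac and lateral mesoderm lay 6 members, 1 lower and 3 higher (median 3.40), and beside 1 of 18 neuroectoderm genes lay 1 member, which was higher. Of all members 52.6% were lower and 17.6% higher in this comparison, and of all loci 35.6% and 33.0%. Over all lists, 34 of the 41 members had the sign of their neighbour in Eo+ vs ESC, and 26 of the 30 pairs in which both were called, beside 58.1% and 61.7% over all members. Between the fractions 13 members were higher and 9 lower, beside 9.34% and 32.2% of all members. All 19 pairs with both loci called had the same sign there, beside 71.4% of such pairs over all members. The lists were chosen with results of these data known, so these counts are no independent evidence of direction.

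Among genes of the mesendoderm, Eomes has XLOC_071771 (chr9:118456159-118461065) 16.4 kb upstream on its own strand. This locus was at 0.00120, 0.0119, 0.0153 and 0.00148 CPM in ESC, 0.0544, 0.144, 0.0367 and 0.10 CPM in Eo−, and 0.279, 0.344, 0.272 and 0.359 CPM in Eo+. The 3 groups did not overlap in any pair. It rose by 5.86 ± 0.72 over ESC in Eo+ (adjusted p = 5.4e-06) and by 2.07 ± 0.41 over Eo− (adjusted p = 0.0011), beside 3.53 ± 0.16 and 1.94 ± 0.15 for Eomes. Since cells were sorted by the Eomes reporter, a change of Eomes between the fractions is no finding.

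XLOC_001639, which starts 9.92 kb from Cxcr4 on the opposite strand, was at 0.821 to 1.23 CPM in Eo+ and at most 0.0438 CPM elsewhere. Cxcr4, the chemokine receptor of migrating mesoderm and definitive endoderm, was at 2.46, 5.02 and 84.0 CPM in ESC, Eo− and Eo+. XLOC_021982 (chr14:63338686-63345662) starts 67.0 kb from Gata4, a zinc finger factor of heart and endoderm. It was at 0.0144 to 0.0410 CPM in ESC, 0.0109 to 0.0526 CPM in Eo− and 0.593, 0.339, 0.427 and 0.524 CPM in Eo+ (log2 fold change in Eo+ vs Eo− 4.38 ± 0.46, adjusted p = 7.4e-06). Gata4 was at 2.48, 5.90 and 151 CPM. XLOC_013669, 9.50 kb from Axin2, a feedback inhibitor of WNT signalling, was at 0.0476 to 0.130 CPM in ESC, 0.146 to 0.191 CPM in Eo− and 0.266 to 0.420 CPM in Eo+ (1.78 ± 0.31 in Eo+ vs ESC, adjusted p = 0.00015), and Axin2 rose from 31.7 to 73.8 CPM.

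Some loci beside mesendoderm genes followed them in some comparisons and not in others. At Evx1 and Bmp7 the loci overlap the gene on its own strand, so part of the gene's transcript and a separate RNA cannot be told apart. XLOC_057337 overlaps the assembled span of Evx1, a homeobox factor of the primitive streak. It was at 0.382 to 0.485 CPM in ESC, 0.0434 to 0.230 CPM in Eo− and 0.618 to 1.41 CPM in Eo+, so it was lowest in Eo− (-1.60 ± 0.45 in Eo− vs ESC, adjusted p = 0.0079). Evx1 rose in that comparison, from 6.12 to 21.7 CPM (1.89 ± 0.69, adjusted p = 0.029). Both were higher in Eo+ than in ESC, by 1.28 ± 0.36 for the locus (adjusted p = 0.0054) and 4.44 ± 0.63 for Evx1, and higher in Eo+ than in Eo−, by 2.88 ± 0.43 (adjusted p = 0.00012) and 2.55 ± 0.48. XLOC_042917, which overlaps the span of Bmp7, a BMP ligand, was at 0.0998 to 0.538 CPM in ESC, 0.471 to 0.699 CPM in Eo− and 0.375 to 0.715 CPM in Eo+. It rose with Bmp7 in Eo+ vs ESC (1.25 ± 0.42, adjusted p = 0.016, beside 3.45 ± 0.15), a call that edgeR, DESeq2 and leaving out ESC replicate 1 or 5 removed. Between the fractions it was not called (-0.16 ± 0.37, adjusted p = 0.76), while Bmp7 rose from 9.87 to 54.0 CPM (2.48 ± 0.13, adjusted p = 3.9e-08). XLOC_057802 (chr6:85400080-85415174) is 8.52 kb upstream of a locus in which Noto, a notochord homeobox gene, and Smyd5 were joined, and whose counts cannot be split between them. XLOC_057802 was at 0.135 to 0.205 CPM in ESC, 0.159 to 0.291 CPM in Eo− and 0.542 to 0.936 CPM in Eo+ (2.13 ± 0.28 in Eo+ vs ESC, adjusted p = 1.1e-05). The joined locus was at 159, 151 and 159 CPM in ESC, Eo− and Eo+ and was called in no comparison.

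The highest locus beside each of Kdr, Aplnr, Pdgfra, Sox17 and Sox2 was chosen after the values were seen. All 5 moved with their gene in Eo+ vs ESC, so they do not stand for the loci of these lists. Others below the same level did not move with theirs, of which 3 beside other genes are given, also chosen after the values were seen. XLOC_065231, 271 bp from the end of Mesp2, was at 0.255, 0.159 and 0.196 CPM in ESC, Eo− and Eo+ and was called in no comparison, while Mesp2 was at 1.78, 1.53 and 24.3 CPM. XLOC_027330, 94.0 kb from Chrd, fell in Eo+ vs ESC from 0.0453 to 0.00193 CPM (adjusted p = 0.0004), where Chrd was at 3.48 and 76.8 CPM. XLOC_021453, 59.2 kb from Otx2, fell from 0.0549 to 0.00767 CPM (-3.43 ± 0.75, adjusted p = 0.00098), where Otx2 was at 22.5 and 152 CPM. XLOC_053158 (chr5:75978538-75993631) starts 80 bp from the assembled start of Kdr, in the window printed above. It was at 0.00602, 0.00264, 0.00640 and 0 CPM in ESC, 0.0509, 0.00907, 0 and 0.00770 CPM in Eo−, and 0.349, 0.270, 0.113 and 0.358 CPM in Eo+. The Eo− mean was 0.0169 CPM with replicate 1 and 0.00559 CPM without it. Replicate 5 was the lowest Eo+ library for the locus and for Kdr, at 71.1 CPM against 170 to 292 CPM. The log2 fold change in Eo+ vs Eo− was 5.05 ± 0.94 (adjusted p = 0.00068), beside 3.28 ± 0.52 for Kdr, which was at 22.9 and 200 CPM. Kdr is also the nearest named gene of XLOC_055368 and XLOC_055372. XLOC_055368 was highest in Eo−, at 0.00621, 0.0741 and 0.0265 CPM in ESC, Eo− and Eo+. XLOC_055372 was at 0.0151, 0.00829 and 0.0195 CPM in the same order. XLOC_041240 (chr2:85132049-85135868), 36 bp from the locus of Aplnr, the apelin receptor of cardiac progenitors, and Gm13713, was at 0 to 0.0102 CPM in ESC, 0.0136 to 0.0698 CPM in Eo− and 0.178 to 0.335 CPM in Eo+. It rose by 6.16 ± 0.81 over ESC in Eo+ (adjusted p = 1e-05), and the Aplnr locus by 6.20 ± 0.48 (adjusted p = 6.4e-08). XLOC_055362, 2.32 kb from the locus of Pdgfra, a growth factor receptor of mesoderm, and Mir7025, was chosen likewise. It reached 0.0140 to 0.0667 CPM in Eo+ and was at or under 3 counts in all ESC and Eo− libraries. XLOC_000010, chosen likewise, starts 21983 bp from Sox17, an endoderm factor, and overlaps the processed pseudogene Gm7357 of GENCODE M21. It was at 0.0145 to 0.0356 CPM in ESC and 0.0759 to 0.279 CPM in Eo+.

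The loci described next, beside Klf5, Zfp42, Nr0b1, Jarid2 and Sox2 of the pluripotency list, were highest in ESC. XLOC_022318 (chr14:99338820-99351329) overlaps the assembled span of Klf5, a Krüppel-like factor of naive pluripotency, on the same strand. Part of the Klf5 transcript and a separate RNA cannot be told apart at this locus. It was at 1.01, 0.536, 1.05 and 0.726 CPM in ESC, 0.0982, 0.0609, 0.0380 and 0.0475 CPM in Eo−, and 0, 0.0157, 0 and 0.00627 CPM in Eo+. It was lower in Eo+ than in Eo− (-4.46 ± 0.98, adjusted p = 0.0022), where Klf5 did not pass the test (16.3 and 14.1 CPM, adjusted p = 0.42).

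XLOC_067061 (chr8:43356020-43377350), 48.8 kb from the start of Zfp42, was at 0.299 to 0.742 CPM in ESC, 0.0249 to 0.0479 CPM in Eo− and at most 0.0364 CPM in Eo+, while Zfp42 was at 498, 43.0 and 4.38 CPM. XLOC_077630 overlaps Nr0b1 (Dax1), a nuclear receptor of the pluripotency network, on the opposite strand, and was at 0.298 to 0.589 CPM in ESC, 0.118 to 0.141 CPM in Eo− and at most 0.00841 CPM in Eo+ (-6.53 ± 0.70 in Eo+ vs ESC, adjusted p = 1.4e-06). XLOC_017802, 20.3 kb upstream of Jarid2, was at 0.265 to 0.353 CPM in ESC and 0.0345 to 0.0694 CPM in Eo+ (-2.69 ± 0.34, adjusted p = 7.9e-06), beside -1.41 ± 0.09 for Jarid2. XLOC_043476, 72.2 kb beyond the locus that holds Sox2 and Sox2ot and chosen after the values were seen, was at 0.170 to 0.243 CPM in ESC and at or under 3 counts in every Eo+ library, at least 41.1-fold higher in ESC.

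Loci beside other genes of the pluripotency list varied in direction. XLOC_053433, which overlaps the span of Fgf5, a marker of the primed state after naive pluripotency, on the same strand, rose with it: 0.00593 to 0.0294 CPM in ESC, 0.249 to 0.390 CPM in Eo− and 0.249 to 0.601 CPM in Eo+ (4.41 ± 0.53 in Eo+ vs ESC, adjusted p = 4.5e-06). Part of the Fgf5 transcript and a separate RNA cannot be told apart there. XLOC_008068 overlaps the locus of Dnmt3l, a cofactor of DNA methylation, and Icosl on the opposite strand, and was highest in Eo− at 0.283 to 0.379 CPM (1.23 ± 0.33 in Eo− vs ESC, adjusted p = 0.0052) while that locus fell from 294 to 76.7 CPM. XLOC_014120, 44.3 kb from Mycn, was at 0.303 to 0.515 CPM in ESC and 0.108 to 0.317 CPM in Eo+ (-1.07 ± 0.36, adjusted p = 0.018), a call lost without ESC replicate 1 (adjusted p up to 0.067 over the alternatives) or Eo+ replicate 5.

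**Figure D5:**
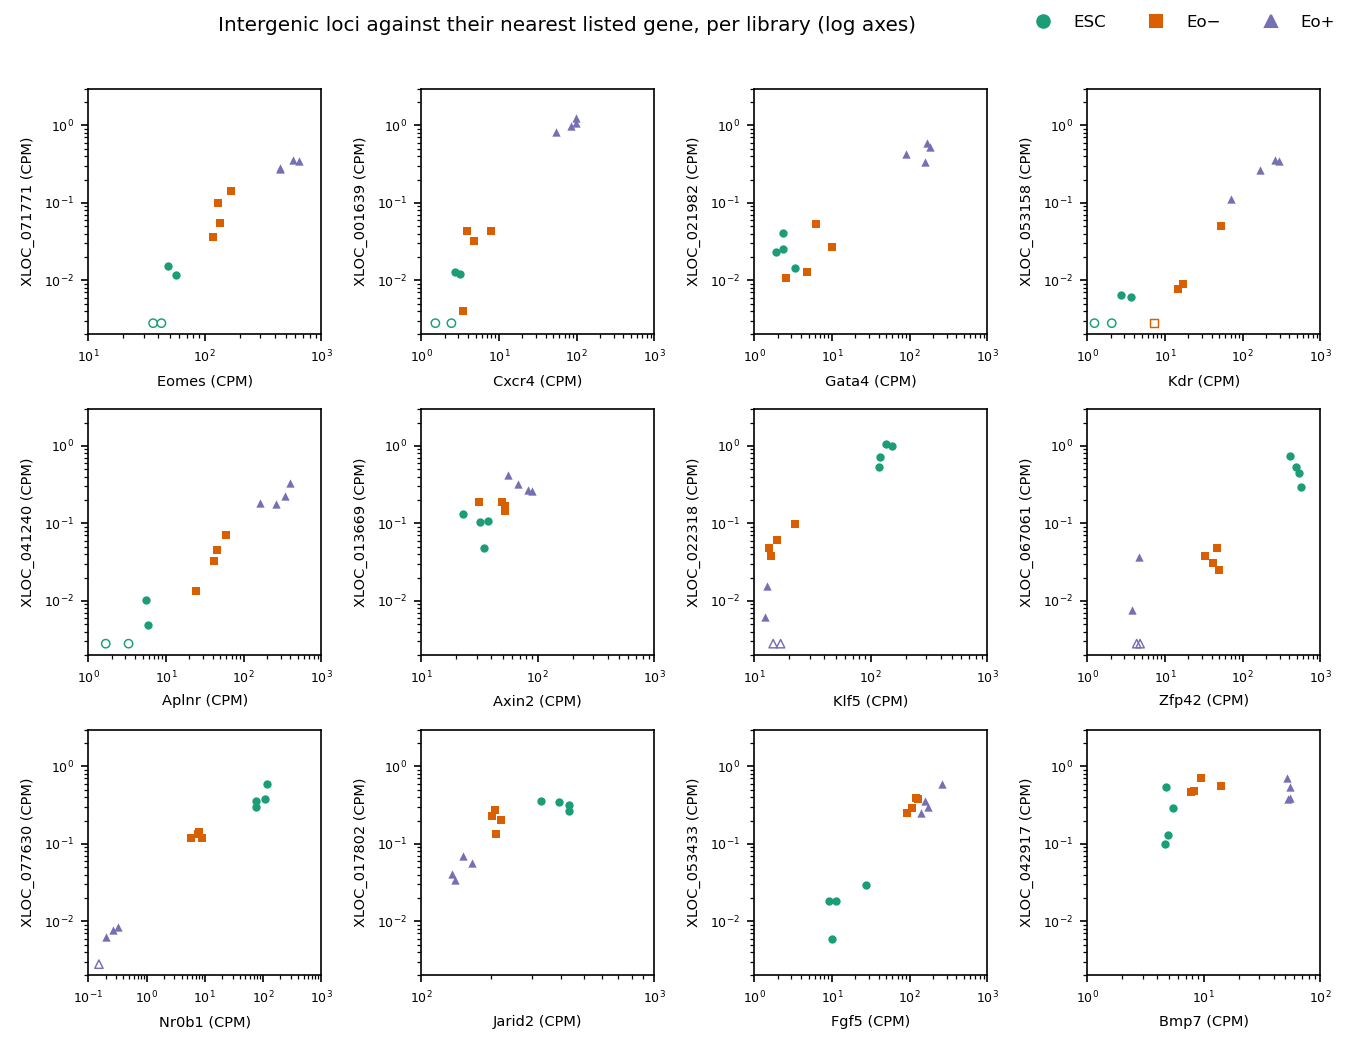
CPM of an intergenic locus (vertical log axis) against that of its nearest listed gene (horizontal log axis) in each of the 12 libraries, for 12 pairs; circles are ESC, squares Eo− and triangles Eo+, and open symbols stand for members under 0.004 CPM. The loci beside Eomes, Cxcr4, Kdr and Aplnr are highest in Eo+ with their gene, those beside Klf5, Zfp42, Nr0b1 and Jarid2 highest in ESC, and the locus at Bmp7 overlaps between Eo− and Eo+.

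Divergent pairs with starts within 5000 bp numbered 282, and the 6 with the highest member CPM were taken as examples. XLOC_007047 (chr10:4244728-4253803) starts 115 bp from Akap12, a scaffold protein of protein kinase A, and was at 2.78, 3.93, 3.03 and 5.63 CPM in ESC, 0.727, 1.09, 0.916 and 0.936 CPM in Eo−, and 0.192, 0.196, 0.373 and 0.174 CPM in Eo+. Both fell in Eo+ vs ESC, by -4.04 ± 0.31 for the locus (adjusted p = 6.8e-08) and -1.99 ± 0.11 for Akap12. XLOC_067494, 93 bp from Med26, rose in Eo+ vs ESC, from 3.67 to 4.74 CPM in ESC libraries to 5.36 to 7.17 CPM in Eo+ libraries (0.50 ± 0.14, adjusted p = 0.0065). Med26 fell at the same time, from 33.1 to 21.7 CPM (-0.61 ± 0.09, adjusted p = 2.6e-05).

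XLOC_069457, 184 bp from the chromatin remodeller gene Chd9, was highest in Eo−, with 2.38 to 4.96 CPM in ESC, 5.58 to 9.99 CPM in Eo− and 1.99 to 4.73 CPM in Eo+ (1.18 ± 0.26 in Eo− vs ESC, adjusted p = 0.0014). Chd9 was at 54.0, 42.8 and 13.7 CPM. XLOC_054461, 4.20 kb from Hsph1, a heat shock protein, fell from 3.96 to 6.15 CPM in ESC to 0.818 to 1.17 CPM in Eo+ (-2.28 ± 0.19, adjusted p = 1e-07), while Hsph1 rose from 181 to 227 CPM (0.34 ± 0.12, adjusted p = 0.024). XLOC_071865, 58 bp from A530083I20Rik, rose from 0.926 to 1.32 CPM in ESC to 4.53 to 5.24 CPM in Eo+ (2.11 ± 0.14, adjusted p = 1.7e-08), and it shares 2 of 11 junctions with the pseudogene Zkscan7 of GENCODE M21. A start of XLOC_071865 also lies within 100 bp of the RefSeq start of Zfp660 on the same strand. Its level may therefore belong to that gene, which was not tested. XLOC_056989, 335 bp from Creb3l2, a transcription factor of the secretory pathway, was at 2.10 to 3.78 CPM in ESC and 3.63 to 4.31 CPM in Eo+ (0.70 ± 0.17, adjusted p = 0.0024), and the libraries overlapped. Of these 6 pairs, the locus and its gene moved in opposite directions in Eo+ vs ESC, with both called, at Med26 and Hsph1.

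Of the loci that the text of the study names by identifier, XLOC_053874 and XLOC_050466 are members, and the others are not. XLOC_053874 (chr5:122080063-122087674) is 12.8 kb upstream of Myl2, the ventricular myosin light chain, and was at 0.202, 0.177, 0.124 and 0.286 CPM in ESC, 0.0781, 0.0881, 0.0991 and 0.0449 CPM in Eo−, and 0.0102, 0, 0.0140 and 0 CPM in Eo+. It fell in Eo+ vs Eo− (-4.61 ± 0.90, adjusted p = 0.00096), and Myl2 was at 0.363, 1.19 and 0.317 CPM. XLOC_050466 (chr4:55469968-55478771, 4.15 kb upstream of Gm12510) was at 0.119, 0.213, 0.152 and 0.0859 CPM in ESC and at no more than 2 counts per library in either sorted fraction. It was at least 35.0-fold higher in ESC than in Eo− and at least 30.3-fold higher than in Eo+.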

How the data were processed

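Reads of 12 libraries were aligned by the authors to mm10 (GRCm38) with STAR (2.0.4 in the submitters' processing notes, while the study's methods name another version), assembled with Cufflinks 2.2.1 and counted per locus with HTSeq 0.6.1. The deposited raw table holds counts for 80012 loci, and a second deposited table lists 22187 of them with a normalized signal, scaled by the authors and used here only to choose loci. Positions of 79655 loci came from the deposited annotation, and 26 loci of the table have none. No column belonged to another series (0 columns).

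Counts were fitted here with limma 3.58.1 (voom, TMM factors of edgeR 4.0.16, R 4.3.3) on the 22187 loci over 12 libraries, with two-sided moderated tests and Benjamini-Hochberg adjustment, after a test on simulated data. Library sizes were totals over all loci. Reads that were not unique (22.4% to 26.2% of those tallied) were left out by the authors' counter. The study filtered on FPKM above 0.1 in at least 1 condition. By summed exon length 1204 members pass, and the length used for that filter is not given in the sources used here. The limit of 3 counts covers counting error only.

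Sorted fractions with the same number come from the same differentiation, and their deviations correlated (r = 0.31 to 0.65 over 13055 loci in 4 pairs). The study's methods place all 12 samples in 4 differentiation sets, so the number may tie ESC libraries to the same sets, and their deviations correlated with those of Eo− at r = -0.14 to 0.49 and of Eo+ at r = -0.12 to 0.16. The labels do not say whether samples of a group are separate cultures beyond this, so p-values measure the spread between these libraries. Members named were the 6 highest by mean FPKM, the 4 largest rises and falls per comparison with at least 1 CPM and no overlap, the highest locus within 100 kb of each listed gene at 0.3 CPM or more, the 6 highest divergent pairs, and those the study names. Members and lists were chosen with earlier results of these data known. GENCODE M21 and RefSeq sequences were used, and no genome sequence was used. Exon ends and loci beside Kdr, Aplnr, Sox17, Sox2, Pdgfra, Mesp2, Chrd and Otx2 were added after the values were seen. A locus that this rule names is not reported here.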

Additional observations from a re-analysis of the deposited data

Results flagged for a closer look

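Within groups of 4 libraries, 6 levels stood apart from the other 3 by more than the 95% critical value of Dixon's test, out of 156 groups examined. Chance flags about 1 in 20 groups. XLOC_040333 was at 298 CPM in Eo+ replicate 1, while the remaining 3 were at 6.44 to 10.3 CPM. XLOC_006008 was at 0.109 CPM in Eo+ replicate 5, against 0.0110 to 0.0222 CPM, and XLOC_007047 at 0.373 CPM in the same library, against 0.174 to 0.196 CPM. XLOC_008068 was at 0.379 CPM in Eo− replicate 5, against 0.283 to 0.298 CPM. XLOC_056989 was at 3.78 CPM in ESC replicate 6, against 2.10 to 2.37 CPM, and at 3.63 CPM in Eo+ replicate 1, against 4.24 to 4.31 CPM.

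Of the 2063 spliced intergenic loci that the normalized table leaves out, 212 had a mean of at least 1 CPM in at least 1 group. Among them, XLOC_013677 (chr11:109011645-109012166) had group means of 180, 69.2 and 443 CPM in ESC, Eo− and Eo+, and XLOC_053400 (chr5:95973937-95976022) of 179, 175 and 137 CPM. XLOC_007331 (chr10:24325924-24383487) was at 19.4, 81.9 and 37.0 CPM.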

How the results depend on the processing

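Counts of called members stayed within 1.5 times the values given under DESeq2 size factors, library totals, edgeR, DESeq2, no filter, a 2-fold minimum, the stricter exon rule and the removal of M21 coding genes and pseudogenes (added after seeing the data). Stricter level filters test fewer loci. With 1 CPM in 4 libraries 180, 166 and 161 members were called in Eo+ vs ESC, Eo− vs ESC and Eo+ vs Eo−, and 74.4%, 60.8% and 88.2% of them were lower. With FPKM above 0.1 the counts were 922, 835 and 669. Leaving out single libraries gave 1850 to 1932, 1485 to 1613 and 978 to 1187. With the replicate number as a block 1959, 1627 and 1274 were called. The block within the sorted fractions (added after seeing the data) gave 1211 in Eo+ vs Eo− and, among named loci, removed the Eo+ vs Eo− call of XLOC_067061 and added those of XLOC_002027 and XLOC_056989. The block over all libraries removed none and added those of XLOC_002027 and XLOC_040333.

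The same-sign share was 61.7%, 64.7% and 71.4% where both loci were called. With the nearest protein-coding locus it was 56.5% in Eo+ vs Eo−. Leaving out libraries gave 57.3% to 58.4%, 56.1% to 57.9% and 57.2% to 58.7%.

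Among 123 called fold changes of named loci, all kept their direction in the alternatives run, and 18 lost the call in at least 1. Of 33 fold changes that were not called, 9 gained a call in the same direction in at least 1 alternative. They were Eo− vs ESC for XLOC_040333, XLOC_065758, XLOC_019105, XLOC_045267 and XLOC_056989, and Eo+ vs Eo− for XLOC_040333, XLOC_000032, XLOC_002027 and XLOC_056989. XLOC_002027 (adjusted p = 0.052) gained it in 9 alternatives. Signs changed for 10 fold changes that were not called. For Eo− vs ESC, XLOC_042881 was at -0.0636 (1 CPM filter), -0.0519 (DESeq2), -0.0670 (DESeq2 size factors), -0.0317 (FPKM filter) and -0.0431 (no filter), and XLOC_021982 at 0.00758 in edgeR. Leaving out single libraries gave ranges of -0.0713 to 0.130 and -0.578 to 0.140 for these, and -0.271 to 0.467 for XLOC_055362. In Eo+ vs ESC they were -0.968 to 0.884 for XLOC_040333 (lowest without Eo+ replicate 1, and then called), -0.450 to 0.0410 for XLOC_008068 and -0.254 to 0.171 for XLOC_069457. Between the fractions they were -0.0771 to 1.78 for XLOC_040333, -0.181 to 0.0205 for XLOC_065758, -0.0943 to 0.334 for XLOC_053433 and -0.460 to 0.724 for XLOC_050466. The cause was not tested.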
